A study of Homo sapiens with 13 samples.

Results

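The MYC and MAX network of transcription factors was followed through 10 genes in 2 small cell lung cancer (SCLC) lines. They were chosen by name: the paralogs MYC, MYCN and MYCL, their partner MAX, the MXD-type repressors MXD1, MXD3, MXD4 and MXI1, and the large MAX partners MNT and MGA. All 10 were present once among the 56831 genes listed for each line, and all 10 passed the filter on low values in both. By GENCODE release 44 MYC lies on chromosome 8, MYCN and MXD1 on 2, MYCL on 1, MAX on 14, MXD3 on 5, MXD4 on 4, MXI1 on 10, MNT on 17 and MGA on 15. The lines were H82 and H146, human SCLC cells labelled as wild type, and their RNA was sequenced. Untreated cells gave 3 libraries per line, and cells under FHD-286 gave 3 libraries of H82 and 4 of H146. FHD-286 inhibits SMARCA2 and SMARCA4, the ATPases of the SWI/SNF chromatin remodeling complexes, and was given at 100 nM for 14 days with renewal every 48 h. The comparison asks how transcripts of the network stood in each line after this inhibition. The labels name no vehicle for the untreated cells and do not say whether libraries came from separate cultures, so p-values measure only the spread between these libraries.

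MYC proteins bind DNA as heterodimers with MAX, mainly at the E-box CACGTG, and activate genes for growth, ribosome assembly and metabolism. MXD proteins and MNT compete for MAX and for the same sites, where they recruit the SIN3 and histone deacetylase corepressors, and MGA joins MAX to a variant Polycomb complex called PRC1.6. MYC paralogs are often amplified in SCLC, and H82 is known as a line with amplified MYC.

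Levels are given as TPM, the share of a library's transcripts that a gene takes after correction for its length, so that genes can be set beside each other. Changes are log2 fold changes of TPM + 1, treated against untreated, with the standard error of the fit and the limma p-value adjusted over all genes tested in that line (threshold 0.05). TPM is a share, and here the typical gene did not stay level: the median change over all genes tested was -0.56 in H82 and 0.25 in H146. A scaling by the median of ratios between libraries brought these medians to -0.14 and -0.02, and changes under it are given where a call depends on it. Genes at 1 TPM or more numbered 21227 to 21772 in untreated and 15554 to 16633 in treated H82 libraries, against 17476 to 17965 and 18778 to 19309 in H146. Mitochondrial transcripts took 22.1% to 24.1% of untreated and 12.3% to 14.9% of treated H82 libraries, and 7.56% to 8.86% and 3.82% to 11.4% of those of H146, and their part in the results was not tested. Summed markers of blood cells reached at most 9.29 TPM in any library, and those of fibroblasts and endothelium at most 18.7 TPM, in treated H82. Neuroendocrine markers summed to 744 to 831 TPM in untreated and 275 to 782 TPM in treated H82. In H146 they summed to 1511 to 1836 TPM untreated and 1231 to 1572 TPM treated, with NEUROD1 below 1 TPM throughout. Of 7 such markers 1 rose and 3 fell in H82, beside 13.1% and 45.5% of all genes tested. Of the 6 tested in H146 1 rose and 2 fell, beside 32.5% and 15.5% of all genes. The low-neuroendocrine markers summed to 54.1 to 56.1 TPM in untreated and 73.9 to 99.2 TPM in treated H82, and to 7.74 to 8.48 TPM and 13.5 to 44.5 TPM in H146. They did not move together in H82. VIM held 6.69 to 8.45 TPM untreated and 43.6 to 44.1 TPM treated. NOTCH2 held 36.8 to 37.5 TPM untreated and 15.8 to 33.8 TPM treated, and REST changed by 0.15 (limma, adjusted p = 0.498).

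Treated H82 replicate 2 stood apart from the other treated H82 libraries. The screen for genes high in a single library was added after its MYCN value, given below, had been seen. It held 34 genes at 10 TPM or more that were at least 10-fold above every other H82 library, against 27 in untreated H82 replicate 2, 4 to 7 in the other H82 libraries and 0 in each H146 library. The 114 genes restricted to H146 among untreated cells summed to 428 TPM in it, against 82.4 and 36.7 TPM in the other treated H82 libraries, at most 1.34 TPM in untreated H82 and at least 6358 TPM in H146. Changes of network genes that rest on it are given with and without it. Without it, 1 of the 7 neuroendocrine markers rose and 4 fell in H82. In that fit 1738 of all 19237 genes tested rose and 8187 fell. The added fall was CHGB, at -2.22 without it (limma, adjusted p = 0.000781) and -1.51 with it (limma, adjusted p = 0.0523).

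**Figure D1:**
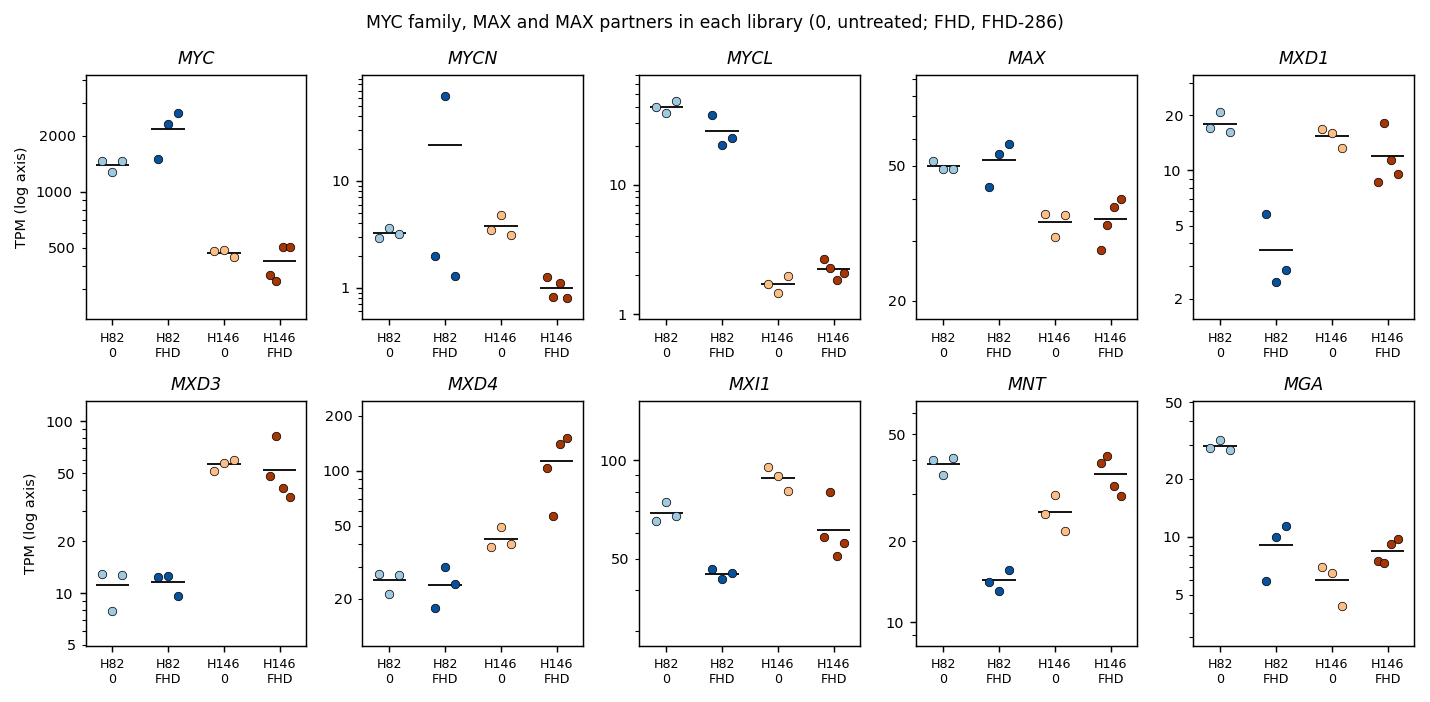
TPM of each network gene in all 13 libraries, on a log axis of its own for each gene, with a point for each library and a line at the group mean. MNT and MGA lay below the untreated range in treated H82 and not in treated H146, MXD4 was high in 3 of 4 treated H146 libraries, and MYCN stood at 61.8 TPM in 1 treated H82 library.

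MYC was by far the most abundant paralog in both lines and made up 96.6% to 99.4% of the summed MYC family TPM in every library. In H82 it stood at 1457, 1272 and 1467 TPM in the untreated libraries and at 1491, 2320 and 2662 TPM after FHD-286. In H146 it stood at 477, 487 and 446 TPM untreated and at 356, 329, 503 and 505 TPM treated. The 3 treated H82 libraries all lay above the untreated ones, although replicate 1 cleared them by little, and the H146 groups overlapped. In bulk RNA a smaller part of cells expressing a gene and less RNA per cell cannot be told apart. Among all genes of a library, MYC ranked between 43rd and 88th in H82 and between 246th and 397th in H146. The groups thus ordered as treated H82, untreated H82, untreated H146 and treated H146, with a 2.98-fold step between the untreated lines and no separation between the H146 groups.

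The MYC change did not pass the test in either line on the TPM scale. The H82 change was 0.59 ± 0.27 (limma, adjusted p = 0.106) and the H146 change -0.18 ± 0.18 (limma, adjusted p = 0.436). Both calls depended on the scaling. With the median of ratios, MYC rose by 1.08 in H82 (limma, adjusted p = 0.0107), while H146 MYC fell by 0.50 (limma, adjusted p = 0.0297). Quantile normalization gives all libraries the same distribution, and neither change passed there (0.07 and -0.10, limma, adjusted p = 0.861 and 0.599). Without treated H82 replicate 1 the H82 change was 0.83 on the TPM scale (limma, adjusted p = 0.00114). The difference between the lines, H82 minus H146, was 0.76 ± 0.31 (limma, adjusted p = 0.0515), and 1.58 with the median of ratios (limma, adjusted p = 0.000387). It passed on the TPM scale without treated H82 replicate 1, or without treated H146 replicate 3 or 4 (1.01, 0.86 and 0.86).

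MYCN, the paralog named for neuroblastoma, was low in both lines apart from a single library. In H146 it stood at 3.45, 4.83 and 3.09 TPM untreated and at 1.27, 0.819, 1.11 and 0.808 TPM treated. All 4 treated H146 libraries lay below all 3 untreated ones. MYCN fell by 1.25 ± 0.19 (limma, adjusted p = 0.00135), and fell by 1.46 with the median of ratios (limma, adjusted p = 0.000488). In H82 the untreated libraries held 2.95, 3.59 and 3.15 TPM, and the treated ones 1.97, 61.8 and 1.27 TPM.

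Of the treated H82 libraries, 2 thus lay below all untreated ones, and replicate 2 lay above every other library of either line. The fitted change in H82 was 0.83 ± 1.17 (limma, adjusted p = 0.568), and -0.70 without replicate 2 (limma, adjusted p = 0.0506). MYCNOS, the transcript antisense to MYCN, was listed at 8.28 TPM in the same library and at most 0.679 TPM in any other. Reads of the pair cannot be told apart where the counting did not use strand, which is not stated. INSM1, a neuroendocrine transcription factor and marker, was at 296 TPM there, against 12.5 to 33.9 TPM in the other H82 libraries. In H146 MYCN stood at 0.808 to 4.83 TPM and INSM1 at 758 to 1405 TPM. The source of these transcripts in that H82 library was not tested. The difference between the lines in the MYCN change was 2.08 ± 1.22 (limma, adjusted p = 0.161). It was 0.55 without that replicate. It passed the test without treated H82 replicate 3 (2.94, limma, adjusted p = 0.0438) and, over all libraries, with quantile normalization (3.11, limma, adjusted p = 0.0323), both of which keep the replicate that stands apart.

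MYCL, the paralog first found in lung cancer, was a transcript of H82 and close to the filter in H146. The untreated H82 libraries held 39.8, 35.9 and 44.4 TPM, and the treated ones 34.6, 20.1 and 22.8 TPM. In H146 it stood at 1.72, 1.46 and 1.97 TPM untreated and at 2.67, 2.29, 1.82 and 2.10 TPM treated. The H82 groups did not overlap and the H146 groups did. MYCL fell by 0.64 ± 0.22 in H82 (limma, adjusted p = 0.0399), close to the median of all genes, and the call was lost with the median of ratios (-0.16, limma, adjusted p = 0.581). It was also lost without any 1 of the untreated H82 libraries or without treated replicate 2 or 3 (limma, adjusted p = 0.0786 to 0.144). The H146 change was 0.24 ± 0.17 (limma, adjusted p = 0.272).

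MAX, the common partner of these factors, was nearly level in TPM. It stood at 51.6, 49.0 and 49.0 TPM in untreated H82 and at 43.3, 54.2 and 57.9 TPM after treatment. H146 libraries held 36.1, 30.8 and 35.8 TPM untreated and 28.2, 33.5, 37.8 and 39.8 TPM treated. The groups overlapped in both lines, and both H82 groups lay above both H146 groups. The H82 change was 0.04 ± 0.15 (limma, adjusted p = 0.820) and the H146 change 0.02 ± 0.15 (limma, adjusted p = 0.933). Against a median H82 gene that fell in TPM, MAX rose by 0.53 there with the median of ratios (limma, adjusted p = 0.0107). Under that scaling the H146 change was -0.29.

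**Figure D2:**
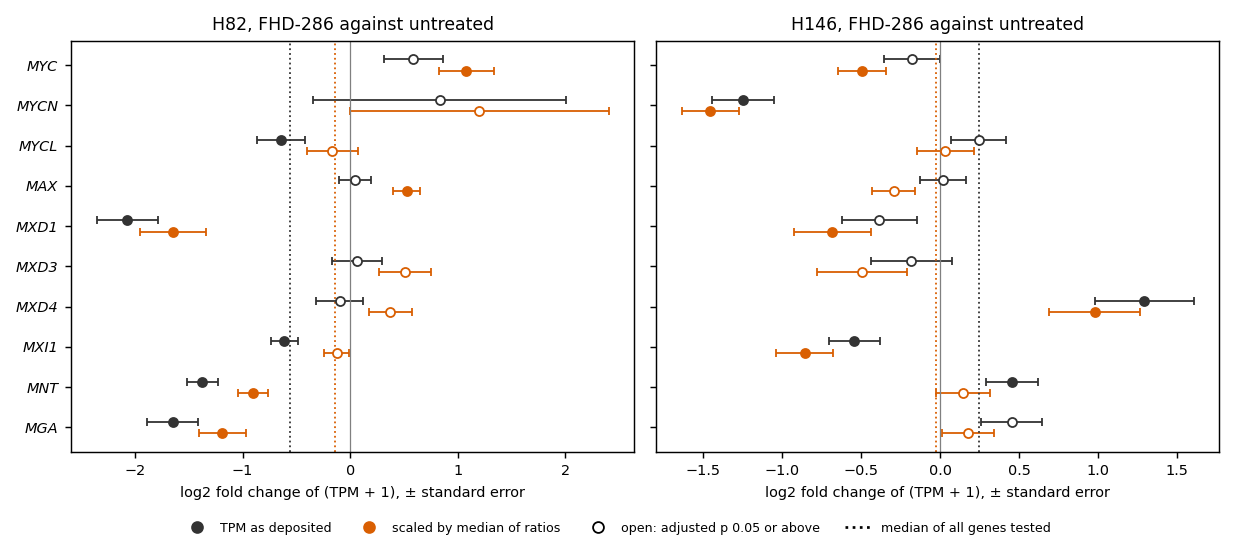
Log2 fold change of TPM + 1 after FHD-286 with its standard error for each network gene, in H82 (left) and H146 (right), on TPM as deposited (black) and scaled by the median of ratios (orange). Filled points passed an adjusted p of 0.05 and dotted lines mark the median of all genes tested: MXD1, MNT and MGA lay below it in H82 under both scalings, and MXD4 above it in H146.

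Counted over the network, 5 of 10 genes fell and 0 rose in treated H82 on the TPM scale, namely MYCL, MXD1, MXI1, MNT and MGA. Of all genes tested in H82, 45.5% fell and 13.1% rose, so the network's counts were near those of genes at large. The limma count of 0 rises on the TPM scale was also 0 at an unadjusted p of 0.05. With the median of ratios 2 genes rose, MYC and MAX, and 3 fell, MXD1, MNT and MGA, where 24.2% of all genes rose and 32.9% fell. In treated H146, 2 genes rose, MXD4 and MNT, and 2 fell, MYCN and MXI1, where 32.5% of all genes rose and 15.5% fell. With the median of ratios 1 rose, MXD4, and 4 fell, MYC, MYCN, MXD1 and MXI1, beside 21.3% and 25.1% of all genes. The groups did not overlap for 6 genes in H82, of which MYC was higher and 5 were lower after treatment, beside 16.4% and 51.4% of all genes. In H146 they did not overlap for 4 genes, MXD4 and MGA higher and MYCN and MXI1 lower, beside 35.7% and 17.3%.

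The MXD repressors, MNT and MGA are taken next. The upstream sequences of the 4 that are named most below are shown so that the presence of the E-box, the site the network itself binds, can be read directly. They are the bases up to 250 before the RefSeq start that lies furthest 5′, stopped before the first base that a GENCODE release 44 transcript of the gene places in an exon, and are given 5′ to 3′ on the gene's strand (RefSeq, GRCh38.p14). Capitals mark CACGTG, which reads the same on both strands.
MXD1, chr2:69914859-69915040, plus strand: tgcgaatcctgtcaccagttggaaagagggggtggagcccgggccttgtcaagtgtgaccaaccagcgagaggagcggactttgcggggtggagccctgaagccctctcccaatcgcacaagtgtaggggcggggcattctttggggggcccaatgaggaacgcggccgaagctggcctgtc
MNT, chr17:2401105-2401310, minus strand: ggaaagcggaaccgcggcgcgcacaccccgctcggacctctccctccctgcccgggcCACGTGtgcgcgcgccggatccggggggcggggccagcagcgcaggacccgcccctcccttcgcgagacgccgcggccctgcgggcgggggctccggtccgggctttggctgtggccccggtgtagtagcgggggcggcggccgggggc
MGA, chr15:41620974-41621133, plus strand: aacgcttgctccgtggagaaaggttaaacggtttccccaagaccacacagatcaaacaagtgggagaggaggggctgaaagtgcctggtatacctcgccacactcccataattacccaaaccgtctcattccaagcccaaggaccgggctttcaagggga
MXD4, chr4:2262110-2262359, minus strand: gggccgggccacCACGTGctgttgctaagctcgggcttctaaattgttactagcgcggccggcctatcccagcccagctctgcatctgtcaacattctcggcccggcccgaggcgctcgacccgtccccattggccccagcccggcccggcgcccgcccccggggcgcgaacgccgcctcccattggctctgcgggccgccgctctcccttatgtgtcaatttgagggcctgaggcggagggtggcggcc

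CACGTG began 193 bases before the start of MNT and 238 bases before the start of MXD4. It was not found in the windows of MXD1 and MGA, which says only that these letters are not in these windows. Of the 14 windows of 300 bases listed for 9 of the 10 genes, 2 held it, against 7.26% of all 35116 windows listed. Of the pair with the motif, MNT fell and MXD4 was at -0.10 in H82, and both rose in H146 on the TPM scale.

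MXD1, which is induced as many cell types differentiate and replaces MYC on MAX, fell furthest of the network in H82. It stood at 16.9, 20.8 and 16.2 TPM untreated and at 5.76, 2.47 and 2.85 TPM after FHD-286. All treated libraries lay well below the untreated ones. MXD1 fell by 2.07 ± 0.28 (limma, adjusted p = 0.00101), and fell by 1.64 with the median of ratios (limma, adjusted p = 0.00406).

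In H146, MXD1 stood at 16.8, 16.1 and 13.2 TPM untreated and at 8.67, 18.1, 11.4 and 9.60 TPM treated. Replicate 2 of the treated group was above every untreated library, and the other 3 were below all of them. The change was -0.39 ± 0.24 (limma, adjusted p = 0.209), and passed the test without that replicate (-0.59, limma, adjusted p = 0.0119) and with the median of ratios (-0.68, limma, adjusted p = 0.0477). The lines differed by -1.69 ± 0.38 in their MXD1 change (limma, adjusted p = 0.00246). This difference was -0.97 with the median of ratios (limma, adjusted p = 0.0603).

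MXI1, also known as MXD2, was the most abundant repressor of untreated cells and was lower in treated cells of both lines. In H82 it stood at 65.4, 74.4 and 67.8 TPM untreated and at 46.5, 43.2 and 45.0 TPM treated. Untreated H146 libraries held 95.2, 89.4 and 80.8 TPM and treated ones 58.0, 79.9, 50.8 and 55.8 TPM. The groups did not overlap in either line, although treated H146 replicate 2 lay just under the lowest untreated library. MXI1 fell by 0.61 ± 0.13 in H82 (limma, adjusted p = 0.00519), near the median of all genes there, and the call was lost with the median of ratios (-0.13, limma, adjusted p = 0.396). It fell by 0.54 ± 0.16 in H146, against a median gene that rose (limma, adjusted p = 0.0246), and by 0.86 with the median of ratios (limma, adjusted p = 0.00561). The H146 call was lost without untreated replicate 1 or 2 or without treated replicate 1, 3 or 4 (-0.53 to -0.46, limma, adjusted p = 0.0527 to 0.0935).

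MXD4, a repressor found mostly in resting and differentiated cells, was the member that rose most in H146. It stood at 38.2, 49.6 and 39.9 TPM untreated and at 103, 56.3, 140 and 150 TPM treated. Every treated library was above every untreated one, and replicate 2 was again the treated library closest to them. The rise was 1.29 ± 0.31 (limma, adjusted p = 0.00988) and 0.98 with the median of ratios (limma, adjusted p = 0.0247). In H82, MXD4 stood at 27.3, 21.3 and 27.1 TPM untreated and at 17.8, 29.7 and 24.2 TPM treated, and these groups overlapped (-0.10 ± 0.22, limma, adjusted p = 0.719). The MXD4 changes of the lines differed by -1.39 ± 0.43 (limma, adjusted p = 0.0137), and by -0.60 with the median of ratios (limma, adjusted p = 0.199).

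MXD3, the MXD protein expressed in dividing cells, differed between the lines more than with treatment. It stood at 12.8, 7.90 and 12.8 TPM in untreated H82 and at 12.5, 12.6 and 9.55 TPM after treatment. The untreated H146 libraries held 51.4, 57.6 and 59.7 TPM, and the treated ones 48.0, 82.5, 41.2 and 36.2 TPM. Each H146 library held more MXD3 than any H82 library, and the treated and untreated groups of each line overlapped. The H82 change was 0.06 ± 0.23 (limma, adjusted p = 0.836) and the H146 change -0.18 ± 0.26 (limma, adjusted p = 0.581). Without treated H146 replicate 2, which held the 82.5 TPM, the H146 change was -0.43 (limma, adjusted p = 0.0243).

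MNT, a repressor present in both dividing and resting cells, went down in H82 and not in H146. In H82 it stood at 40.0, 35.3 and 40.7 TPM untreated and at 14.2, 13.1 and 15.7 TPM treated. In H146 it stood at 25.2, 29.8 and 21.9 TPM untreated and at 39.0, 41.5, 32.2 and 29.5 TPM treated. The H82 groups were far apart, whereas the lowest treated H146 library lay just under the highest untreated one. MNT fell by 1.37 ± 0.14 in H82 (limma, adjusted p = 0.000397) and by 0.90 with the median of ratios (limma, adjusted p = 0.00182). Its H146 change was 0.46 ± 0.16 and passed the test narrowly (limma, adjusted p = 0.0482). That call was lost with the median of ratios (0.15, limma, adjusted p = 0.508), with quantile normalization (0.28, limma, adjusted p = 0.206), and without untreated replicate 1 or 3 or treated replicate 1, 2 or 3 (0.35 to 0.50, limma, adjusted p = 0.0643 to 0.165).

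MGA, the scaffold of PRC1.6, also went down in H82. It stood at 28.9, 31.9 and 28.2 TPM untreated and at 5.90, 9.94 and 11.3 TPM treated. Values in H146 were 6.99, 6.49 and 4.35 TPM untreated and 7.49, 7.28, 9.22 and 9.72 TPM treated. Neither line's groups overlapped, with the treated libraries lower in H82 and higher in H146, so that the lines were 1.07-fold apart after treatment. MGA fell by 1.65 ± 0.24 in H82 (limma, adjusted p = 0.00125) and by 1.19 with the median of ratios (limma, adjusted p = 0.00364). In H146 the change was 0.45 ± 0.19 (limma, adjusted p = 0.0830).

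The test of the difference between the lines was passed by 5 of 10 network genes, MYCL, MXD1, MXD4, MNT and MGA, all with the lower change in H82. Of all genes tested in that fit, 46% passed in this direction and 13.3% in the other. For MNT the difference was -1.83 ± 0.22 (limma, adjusted p = 2.57e-05), and for MGA it was -2.10 ± 0.31 (limma, adjusted p = 0.000115). Both passed with the median of ratios and with quantile normalization. The differences of MYCL, MXD1 and MXD4 did not pass under either of those scalings. MXI1 fell in both lines, and its difference was -0.07 ± 0.21 (limma, adjusted p = 0.799) on the TPM scale. Scaled by ratios, the same difference came to 0.73 (limma, adjusted p = 0.0183). Under that scaling 5 genes again passed, MYC, MAX and MXI1 with the higher change in H82 and MNT and MGA with the lower, beside 25.5% and 30.8% of all genes.

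Ratios between genes of the same library are the same under any scaling that uses 1 factor per library, though not under quantile normalization. The sum of MYC, MYCN and MYCL was set against the sum of MXD1, MXD3, MXD4, MXI1 and MNT in each library, as transcripts and with no weight for protein or for binding. This ratio was 9.23, 8.22 and 9.20 in untreated H82 and 15.8, 23.8 and 27.6 in treated H82. In H146 it was 2.13, 2.03 and 2.09 untreated and 1.40, 1.19, 1.84 and 1.81 treated. The groups did not overlap in either line, and the treated libraries were higher in H82 and lower in H146. These ratios are a description, since they combine genes described above, and carry no test.

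The parts of the ratio moved differently. In H82 the summed repressors were 162 ± 2.48 TPM (SD, n = 3) untreated and 98.4 ± 2.39 TPM (SD, n = 3) treated, while the MYC family sum was 1442 ± 113 TPM and 2205 ± 604 TPM. In H146 the summed repressors were 228 ± 13.5 TPM (SD, n = 3) and 273 ± 11.01 TPM (SD, n = 4), and the MYC family sum was 476 ± 21.8 TPM and 427 ± 93.8 TPM. The number of MYC transcripts for each MAX transcript was 26.0 to 29.9 in untreated and 34.5 to 46.0 in treated H82. In H146 it was 12.5 to 15.8 untreated and 9.84 to 13.3 treated, and those ranges overlapped.

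**Figure D3:**
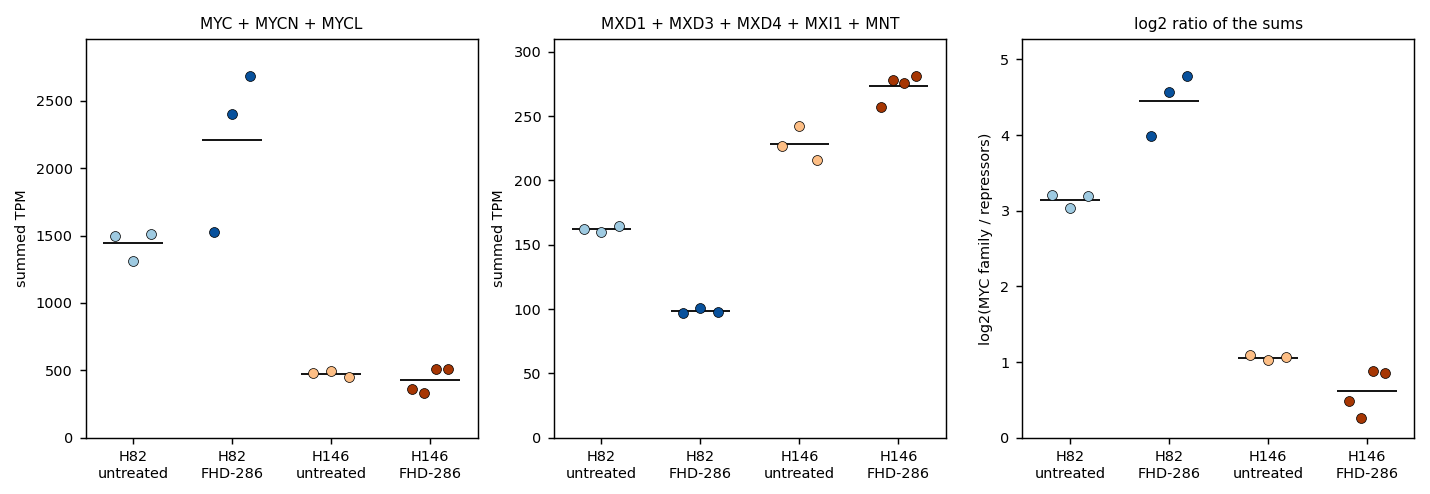
Summed TPM of the MYC paralogs (left), summed TPM of the MXD repressors and MNT (middle), and the log2 of their ratio (right), with a point per library and a line at the group mean. The 3 treated H82 libraries lie above the untreated ones in the ratio, and the 4 treated H146 libraries lie below theirs.

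The make-up of the repressor pool also shifted. MXI1 was the largest part of it in all H82 libraries, with 40.2% to 46.6% untreated and 42.8% to 48.1% treated. MNT took 22.1% to 24.7% of the untreated H82 pool and 12.96% to 16.1% of the treated one, and MXD1 went from between 9.85% and 13.02% to between 2.44% and 5.96%. In H146 the share of MXD4 was 16.9% to 20.5% untreated and 40.2%, 20.2%, 50.7% and 53.4% in the treated replicates 1 to 4. MXD4 was the largest part of the pool in treated replicates 1, 3 and 4, and MXD3 was the largest in replicate 2, with 29.6%.

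**Figure D4:**
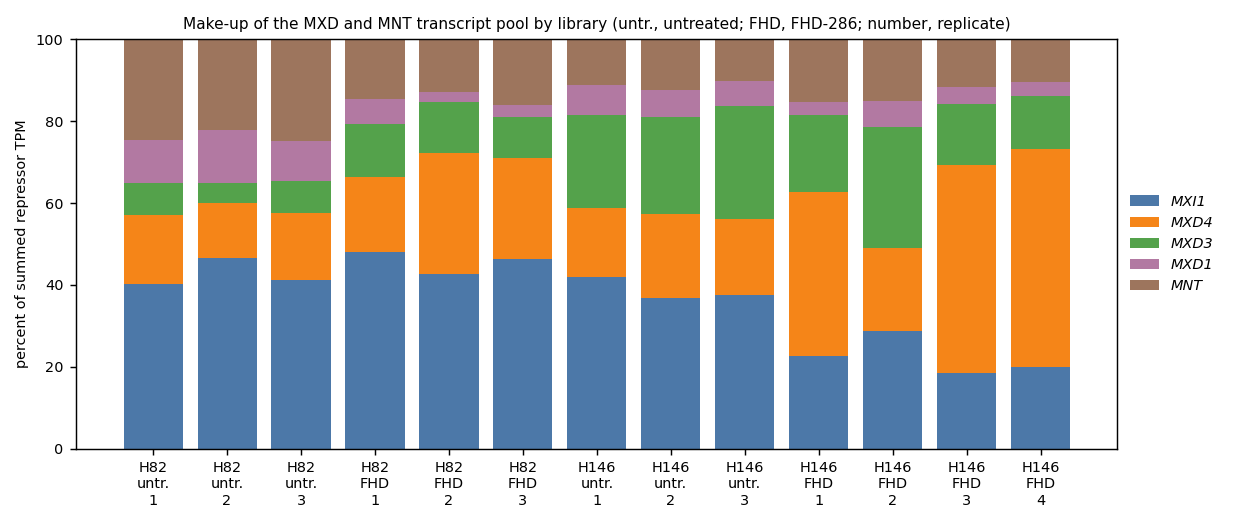
Percent of the summed TPM of MXI1, MXD4, MXD3, MXD1 and MNT held by each gene, with a stacked bar for each of the 13 libraries. The MXD4 part is largest in treated H146 replicates 1, 3 and 4, and the MNT and MXD1 parts are smaller in treated than in untreated H82.

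The genes whose pattern over the 13 libraries was most like that of each paralog were taken by Pearson correlation of log2(TPM + 1) among 24373 genes. For MYC these were RAB34 (r = 0.989), CCT8 (r = 0.988) and CHAF1B (r = 0.987), and for MYCL they were OLIG2, RP4-583P15.11 and RP11-169F17.1, each with r = 0.996. The libraries come from 2 lines, so these values include the step between the lines. For MYCN the nearest genes were TPM1 (r = 0.898), FXYD3 (r = 0.869) and TNNT2 (r = 0.857), whose mean TPM was highest in treated H82, the group that holds the library standing apart.

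PVT1, the noncoding RNA gene next to MYC on chromosome 8, fell in both lines. In H82 it held 22.03 to 25.4 TPM untreated and 3.11 to 4.92 TPM treated, and it fell by 2.26 ± 0.20 (limma, adjusted p = 0.000236). In H146 it held 22.7 to 29.4 TPM untreated and 4.08 to 10.2 TPM treated, and it fell by 1.98 ± 0.27 (limma, adjusted p = 0.000686). GSDMC, a gasdermin gene also listed as a neighbour of MYC, was at most 0.0654 TPM in untreated H146 and between 1.43 and 3.01 TPM in treated H146. It passed the filter only through the treated libraries, so it had to be higher in them and no test is given. Of the 4 listed neighbours of MYCN found in the tables, 3 were tested in H146 and 2 fell, where 15.5% of all genes fell. FAM49A fell by 1.23 ± 0.19 in H146 (limma, adjusted p = 0.00117), as MYCN did, and NBAS by 0.61 ± 0.21 (limma, adjusted p = 0.0395, with overlapping groups). DDX1 was at -0.06 ± 0.24 there (limma, adjusted p = 0.851). Of 7 neighbours of MYCL, 2 fell in H82, and 2 rose and 1 fell in H146. The counts for neighbours of MYCL were near or below the shares of all genes, 45.5% for falls in H82 and 32.5% and 15.5% in H146. MFSD2A fell by 0.92 in H82 and fell by 0.91 in H146. RLF fell by 0.88 in H82 and rose by 1.24 in H146 (limma, adjusted p = 0.00398 and 0.00203).

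In the MLX branch of the network MLX takes the place of MAX, and TXNIP, a brake on glucose uptake, is a known target of MLXIP (MondoA) with MLX. TXNIP stood at 5.75, 9.32 and 4.48 TPM in untreated H146 and at 189, 201, 168 and 164 TPM in treated H146. All treated libraries were far above the untreated ones. The rise was 4.64 ± 0.21 (limma, adjusted p = 3.84e-06), and ARRDC4, the other listed target, rose by 3.01 ± 0.16 (limma, adjusted p = 7.77e-06). In H82, TXNIP stood at 298, 333 and 310 TPM untreated and at 11.6, 152 and 120 TPM treated, with a change of -2.35 ± 0.88 (limma, adjusted p = 0.0531). Without treated replicate 2 the change was -3.01 (limma, adjusted p = 0.0279). That fit gives more weight to treated replicate 1, which held the 11.6 TPM.

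Of the factors themselves, MLXIP rose by 0.65 ± 0.13 in H146 (limma, adjusted p = 0.00401) and MLX fell by 0.76 ± 0.15 (limma, adjusted p = 0.00449). MLXIPL, the carbohydrate-responsive paralog of MLXIP, fell in H82, from 16.8 to 22.4 TPM untreated to 2.02 to 7.94 TPM treated, by 2.07 ± 0.39 (limma, adjusted p = 0.00369).

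The complexes that the network recruits were read from lists of known subunits. Their counts stand beside 13.1% of all genes that rose and 45.5% that fell in H82, and 32.5% and 15.5% in H146. With the median of ratios these shares were 24.2% and 32.9% in H82, and 21.3% and 25.1% in H146. Of 14 MYC coactivators and partners, 4 rose and 6 fell in H82, and 9 rose and 0 fell in H146. Their median changes were -0.27 in H82 and 0.53 in H146, beside -0.56 and 0.25 for all genes. With quantile normalization the medians were -0.34 and 0.43, beside 0.0079 and 0.060, so the H82 median then lay below that of all genes. The limma count of 0 falls in H146 was also 0 at an unadjusted p of 0.05, and was 1 with the median of ratios, where 4 rose. Without treated H82 replicate 2, 2 rose and 5 fell in H82. In that fit 1738 of all 19237 genes tested rose and 8187 fell. EP300, an acetyltransferase, moved oppositely in the lines. It went from between 53.3 and 58.8 TPM to between 10.1 and 23.1 TPM in H82, where it fell by 1.67 ± 0.29 (limma, adjusted p = 0.00262). Untreated H146 held 3.94 to 9.87 TPM and treated H146 22.1 to 39.7 TPM, a rise of 1.98 ± 0.32 (limma, adjusted p = 0.00155). RUVBL1, an ATPase of acetyltransferase and chromatin complexes, rose by 1.19 ± 0.23 in H82 (limma, adjusted p = 0.00413).

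Of 12 subunits of the SIN3 and histone deacetylase corepressor, 3 rose and 5 fell in H82, and 4 rose and 1 fell in H146. These counts were near the shares over all genes given above for the TPM scale. The H82 split turned to 6 rises and 2 falls with the median of ratios, and was 1 rise and 3 falls without treated H82 replicate 2. SAP30 rose by 1.52 in H82 and ARID4B fell by 1.33, and in H146 SIN3B rose by 0.74 while RBBP7, a histone chaperone, fell by 0.42. Of 10 PRC1.6 partners of MGA, 1 rose and 3 fell in H82, and 3 rose and 2 fell in H146, with 4 rises and 1 fall in H82 at the median of ratios. On the TPM scale these counts too were close to those of all genes. RYBP fell with MGA in H82, by 1.62 ± 0.21 (limma, adjusted p = 0.000833), while RING1, a ubiquitin ligase, rose by 0.76. In H146 L3MBTL2 rose by 0.93 and PCGF6, the subunit that defines the complex, fell by 0.78.

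Of 10 genes for turnover of MYC proteins, 1 rose and 5 fell in H82, and 3 rose and 0 fell in H146 (limma). Beside 13.1% and 45.5% of all genes in H82 and 32.5% and 15.5% in H146, the list did not stand out in these counts. At an unadjusted p of 0.05 the count of falls in H146 was also 0, and the median of ratios gave 1 rise and 1 fall there. HUWE1, a ubiquitin ligase, went from between 151 and 161 TPM to between 39.1 and 79.7 TPM in H82, where it fell by 1.39 ± 0.26 (limma, adjusted p = 0.00337), and rose by 0.86 ± 0.19 in H146 (limma, adjusted p = 0.00709).

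Of 36 textbook genes activated by MYC, mostly of the nucleolus and ribosome assembly, 7 rose and 2 fell in H82, and 15 rose and 1 fell in H146. All genes gave 13.1% and 45.5% in H82 and 32.5% and 15.5% in H146. The median change of the list was 0.16 in H82 and 0.56 in H146, beside -0.56 and 0.25 for all genes. With quantile normalization it was 0.10 in H82 and 0.46 in H146, beside 0.0079 and 0.060 for all genes. In H82 8 of the list then rose and 6 fell, where 5256 of all 19770 genes rose and 4859 fell. With the median of ratios 20 rose and 2 fell in H82, and 8 rose and 3 fell in H146. Under that scaling 24.2% of all genes rose and 32.9% fell in H82, and 21.3% and 25.1% in H146. The H146 count of rises was near that share. Without treated H82 replicate 2, 3 rose and 2 fell in H82. In that fit 1738 of all 19237 genes tested rose and 8187 fell. Without treated replicate 1 instead, 3503 of all 19058 genes tested rose and 9957 fell, and no list was counted in that fit. Of the H82 falls, NOP2, a nucleolar methyltransferase, passed the filter only through untreated libraries, so it had to be lower in the treated ones. NME1, a nucleoside diphosphate kinase, rose furthest in H82, from 24.2 to 31.4 TPM untreated to 71.0 to 152 TPM treated (1.95 ± 0.28, limma, adjusted p = 0.00123). EIF4A1, a translation initiation helicase, fell by 2.38 ± 0.24 there (limma, adjusted p = 0.000358). In H146, SRM, which makes spermidine, rose by 1.70 ± 0.42 (limma, adjusted p = 0.0114), and SHMT2, a mitochondrial serine enzyme, fell by 1.49 ± 0.17 (limma, adjusted p = 0.000340).

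Among 6 textbook genes repressed by MYC, CDKN1A in H82 and NDRG2 in H146 passed the filter only through treated libraries, so they had to be higher in them and are left out of the counts. Of the 5 others in each line, 2 rose and 1 fell in H82, beside 13.1% and 45.5% of all genes, and 1 rose and 3 fell in H146, beside 32.5% and 15.5%. CDKN1A, a cell cycle inhibitor, stood at 0.251, 0 and 0.0671 TPM in untreated H82 and at 6.23, 56.3 and 4.39 TPM in treated H82, again highest in replicate 2. CDKN1B, a second such inhibitor, rose by 1.90 ± 0.19 in H82 (limma, adjusted p = 0.000351) and fell by 0.58 ± 0.14 in H146 (limma, adjusted p = 0.00873). CDKN2B, an inhibitor of CDK4 and CDK6, was the gene that rose in H146, from 7.21 to 11.3 TPM untreated to 19.3 to 28.2 TPM treated (1.32 ± 0.20, limma, adjusted p = 0.00109). GADD45A, a stress response gene, fell by 2.06 ± 0.55 in H146 (limma, adjusted p = 0.0148). NDRG1 fell by 1.503 in H82 and fell by 1.98 in H146.

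**Figure D5:**
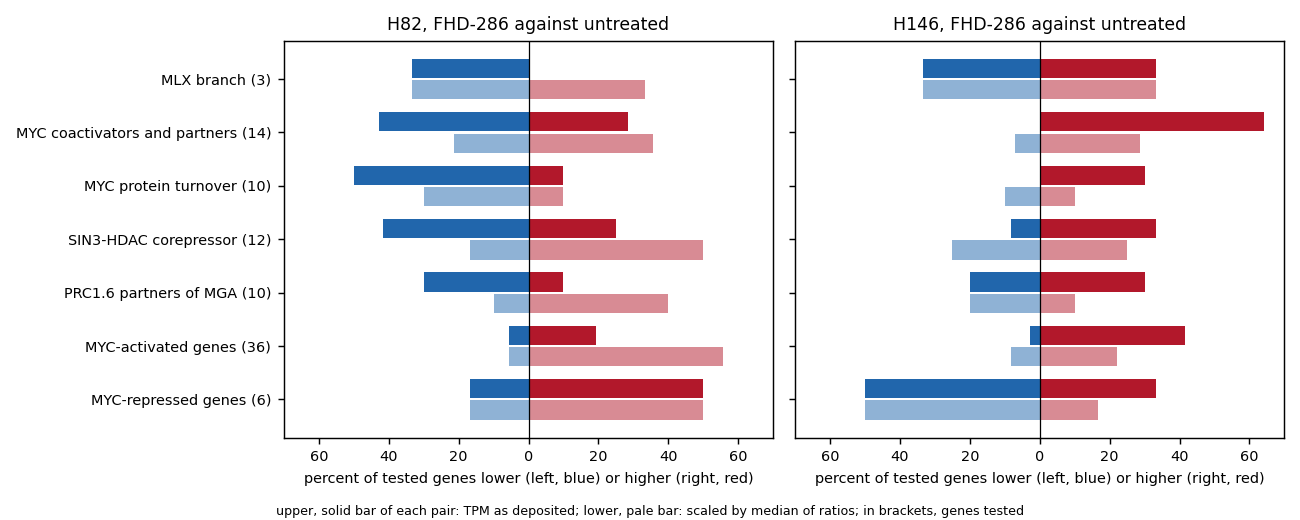
Percent of the tested genes of each list that rose (right, red) or fell (left, blue) after FHD-286 in H82 and H146, on TPM as deposited (upper bar of each pair) and scaled by the median of ratios (lower, pale bar). On TPM as deposited the rises drawn include CDKN1A in H82 and NDRG2 in H146, and the H82 falls include NOP2. The filter fixed the direction of these genes. In H82 the MYC-activated list goes from 7 to 20 rises of 36 with the scaling, and in H146 the coactivator list goes from 9 to 4 rises of 14.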

How the data were processed

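The authors used STAR, both to map reads (hg38) and to count them, and the submitters' processing notes also name Trim Galore 0.4.4. The authors deposited 1 table of TPM values per line. Each of the 13 library columns sums to 1000000. TPM holds no read depth, and strand setting and gene lengths are not given in the sources used here, so no counting interval was drawn, and precision is that of the spread between libraries. GENCODE release 44 gave exon positions. Log2(TPM + 1) was fitted per line with limma 3.58.1 in R 4.3.3 (mean-variance trend, treated against untreated, two-sided), for genes that reached 1 TPM in 3 or more libraries of the fit, with Benjamini-Hochberg adjustment over 19770 genes in H82 and 19585 in H146. The interaction of line and treatment was fitted over all 13 libraries and 24374 genes. The scripts were tested on simulated data.

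The members and lists were chosen with earlier results of these data known. Lists other than the members were written from general knowledge. Named genes are all members, the largest rise and fall of each list among called genes whose groups do not overlap (any gene in lists of up to 7), and the 3 genes most correlated with each MYC paralog. A gene named for one line may also be given for the other. INSM1 was also chosen for the library that stood apart, after its values were seen.

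Alternatives were a pseudocount of 0.1, no filter, a mean above 2 TPM, median of ratios, quantile normalization, no trend, library weights, a replicate block and leaving out each library. The values of 1 listed gene are not reported here.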

Additional observations from a re-analysis of the deposited data

Results flagged for a closer look

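The treatment changes of 5 network genes differed between the lines by the interaction test on TPM as deposited, H82 minus H146 on the log2 scale. The differences were -0.89 for MYCL, -1.69 for MXD1, -1.39 for MXD4, -1.83 for MNT and -2.10 for MGA. Those of MNT and MGA also passed with the median of ratios and with quantile normalization, and those of MYCL, MXD1 and MXD4 passed with neither. The share of all genes that differed in this direction was 46% on the TPM scale. In treated H146, the one group of 4 libraries, 10 genes and the ratio built from them were tested for a library far from the others, and 0 of these 11 measures had one. Chance alone flags about 1 in 20 independent measures, and these are not independent. Groups of 3 are too small for that test, so MYCN in treated H82 replicate 2 was not tested by it.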

How the results depend on the processing

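With the median of ratios 2 network genes rose and 3 fell in H82, and 1 rose and 4 fell in H146. These were also the H82 counts (2 and 3) with the median of ratios and without treated H82 replicate 2. In H82 library weights gave 1 rise, and leaving out 1 library gave 0 to 1. In H146, 1 gene rose with no filter, with quantile normalization and with no trend, leaving out 1 library gave 1 to 2 rises and 1 to 4 falls, and library weights gave 4 falls. Quantile normalization left 3 differences between the lines, those of MNT, MGA and MYCN, the last with treated H82 replicate 2 included. Same-numbered libraries did not deviate together (correlations of 0.027, 0.0075 and -0.038 in H82 and -0.14, -0.076 and 0.013 in H146). With so few libraries this does not settle whether the numbers pair them, and the labels do not say. The replicate block gave 1 fall in H146, MYCN, 0 rises and 5 falls in H82, 2 rises in H146 and 4 differences between the lines. The cause of these moves was not tested.

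Directions turned for the changes below, among them those of MYCL in H82 and its difference between the lines, which had passed the test. In H82, with the median of ratios and without treated replicate 2, MYCN was at -0.30, MYCL at 0.068 and MXD4 at 0.29. MXD4 in H82 was 0.37 and 0.26 under the scalings by ratios and by quantiles, and MXD3 was -0.13 with library weights. In H146, MYC was 0.033 with library weights, MYCL was -0.0029 with quantile normalization, and MAX was -0.29, -0.14 and -0.050 with the median of ratios, with quantiles made equal and with the replicate block. The MYCL difference between the lines was 0.0100 with the median of ratios and without treated H82 replicate 2. The MXI1 difference was 0.73, 0.14, 0.15 and 0.82 under the scaling by ratios, quantile normalization, library weights, and the first together with leaving out treated H82 replicate 2. Leaving out 1 library gave ranges of -0.70 to 1.70 for MYCN, -0.041 to 0.17 for MAX, -0.15 to 0.18 for MXD3 and -0.26 to 0.091 for MXD4 in H82, and -0.055 to 0.11 for MAX in H146. For the differences between the lines it gave -0.068 to 0.15 for MAX and -0.15 to 0.067 for MXI1. The combined setting was chosen after seeing the data.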
